A study of Mus musculus with 8 samples.

Results

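Mitosis, the phase in which a cell separates its copied chromosomes and divides, is carried by a set of genes whose transcripts build up late in the cell cycle. The genes described here are 49 such genes, named by symbol as genes of mitotic entry and mitosis, with kinesin motors left out except for Cenpe, which is itself a kinesin of the centromere. All 49 were found among 53507 gene rows, and all 49 passed the filter on low counts that kept 19936 genes for testing. By role they are 10 genes of mitotic entry, 4 of the chromosomal passenger complex, 11 of the kinetochore and its checkpoint, 10 of the spindle, 4 of anaphase and mitotic exit, 4 of cytokinesis and 6 of chromosome structure.

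RNA was sequenced from mouse brain cells that carried tdTomato, a red fluorescent protein, and that the labels call progenitor cells. There were 2 libraries in each of 4 groups. Embryonic cells, labelled wt, were taken at embryonic day 13 (E13) and embryonic day 15 (E15). Postnatal cells were taken at postnatal day 12 (P12) from mice kept in normal air (normoxia) or in 10% oxygen from P3 to P11, which is 8 days (hypoxia). Hypoxic and control mothers were exchanged at P6 and P9. Each library was made from 400 pg of RNA. The labels name no Cre line, promoter or strain, and nothing in them says that the 2 libraries of a group came from different animals, so p-values measure the spread between libraries, which may be technical.

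A cell enters mitosis when Cdk1, a protein kinase, is bound by B-type and A-type cyclins and freed of inhibitory phosphate by Cdc25 phosphatases, with Plk1 and the Aurora kinases acting beside it. Kinetochores then attach chromosomes to spindle microtubules, the spindle checkpoint holds the cell until every chromosome is attached, and the anaphase-promoting complex with Cdc20 releases separase from securin so that sister chromatids part. In the embryonic cortex, radial glia and intermediate progenitors divide to make neurons, whereas in the postnatal brain most dividing cells are glial progenitors.

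Libraries held 36252027 to 47084796 counts in gene rows. At least 10 counts were found for 17520 to 18318 genes in the embryonic libraries, 14129 and 16468 in the normoxic and 12785 and 11695 in the hypoxic. Values below are CPM, counts set against a library size adjusted by the trimmed mean of M values (TMM), unless said otherwise. The TMM factors were 1.32 to 1.38 in the embryonic libraries and 0.639 to 0.848 at P12, so the level of P12 cells against embryonic cells depends on the scaling. Without TMM the median log2 fold change of all tested genes against the embryo moved from -0.04 to -0.85 in normoxic cells and from -0.43 to -1.32 in hypoxic cells.

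The marker genes of the labelled cell type gave a mixed picture. Summed over 9 genes each, neuron markers reached 4544 to 5253 CPM in the embryonic libraries, where radial glia markers reached 243 to 324 CPM. At P12 radial glia markers stood at 4636 and 3825 CPM in normoxia and at 5072 and 4836 CPM in hypoxia, neuron markers at 267 to 687 CPM, astrocyte markers (8 genes) at 8223 to 11296 CPM and oligodendrocyte progenitor markers (10 genes) at 1488 to 4265 CPM. The P12 and embryonic cells therefore differed in cell type markers as well as in age, and in bulk RNA fewer dividing cells and less mitotic RNA per cell cannot be told apart.

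At P12 the libraries of a group stood apart from each other in these genes. The median difference between the 2 libraries of a group over the 49 genes was 0.14 on the log2 scale at E13 and 0.24 at E15, but 1.01 in normoxia and 1.16 in hypoxia. Over all tested genes the medians were 0.19, 0.17, 0.67 and 0.63. These also count genes near 0, where log2(CPM + 1) can differ little, so the 2 sets of medians are not like for like. Of the 49, 30.6% differed at least 4-fold in normoxia and 34.7% in hypoxia. The shares over all tested genes, 42.2% and 55.9%, also count genes at 0 in both libraries. They cannot be set against the shares of the 49, which had no gene at 0 in any library. In normoxia 7 of the 49 genes lay under 1 CPM in replicate 1 and above 10 CPM in replicate 2 (14.3%, against 8.17% of all tested genes split in this way in either direction), namely Cdk1, Cenpe, Bub1, Bub1b, Ttk, Ube2c and Anln. Tested genes that stayed under 10 CPM in both libraries could not be split, so these shares are not like for like. In hypoxia 11 were split (22.4%, against 15.1%, with the same limit). Of these, 9 were low in replicate 2 (Cdc25b, Birc5, Bub1, Ttk, Mad2l1, Espl1, Anln, Ect2 and Ncapg) and 2 in replicate 1 (Nuf2 and Dlgap5). The split reached subunits of 1 complex. The Ndc80 complex, which grips microtubules at the kinetochore, has 4 subunits, and in hypoxic replicate 1 Nuf2 was at 0.0673 CPM and Ndc80 at 6.66 CPM while Spc24 was at 115 CPM and Spc25 at 173 CPM. In hypoxic replicate 2 the same 4 genes stood at 45.8, 150, 79.1 and 373 CPM.

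**Figure D1:**
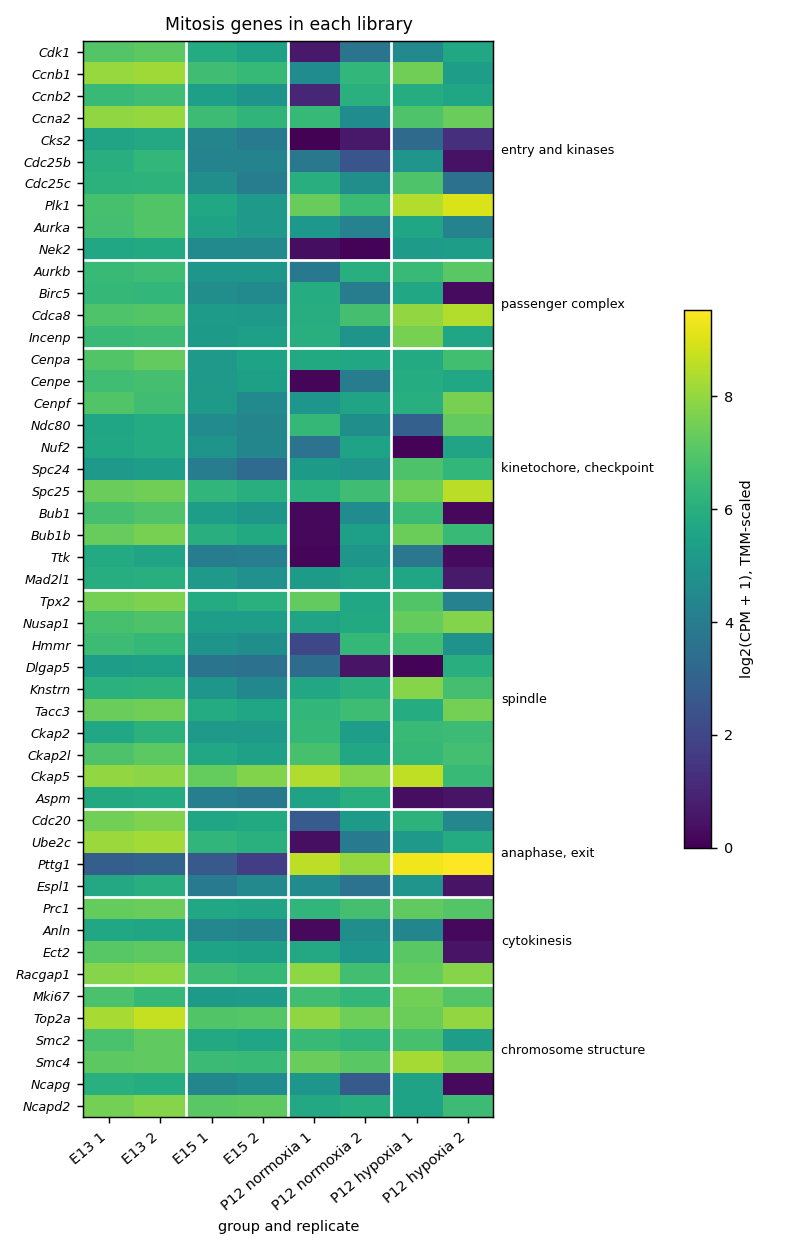
Level of each of the 49 mitosis genes (rows, by role) in each of the 8 libraries (columns), as log2(CPM + 1) after TMM scaling, from dark (low) to yellow (high). E15 columns are darker than E13 columns in every row, and P12 columns hold single dark cells in 1 library of a group, as for Bub1, Ttk and Anln.

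Promoter sequences are shown because many mitotic genes carry a pair of short elements there, the CCAAT box, bound by NF-Y, and the cell cycle genes homology region (CHR), written TTTGAA or TTCGAA. RefSeq windows on GRCm38.p6, from 250 bases before to 50 bases after a gene's start, matched 41 of the 49 genes. Both strands were searched, so CCAAT also counts as ATTGG and TTTGAA as TTCAAA, and matches of the motifs may share letters. In these windows 32 of 41 genes held CCAAT (78.0%, against 41.1% of 27025 genes), 30 held a CHR (73.2%, against 21.7%), 28 held both (68.3%, against 8.61%) and 22 held at least 2 CCAAT boxes (53.7%, against 13.3%). In the 250 bases before the start alone, 16 of 41 held a CHR (39.0%, against 19.6%). Of 100 other mitotic genes with a window, described further on, 24 held both (24.0%). The 6 sequences below are the 250 bases before the start, 5′ to 3′ in the direction of the gene, with motif matches in capitals. Top2a, Ccnb2 and Mki67 hold both elements, Cks2 and Aspm only CCAAT boxes in this stretch, and Nusap1 neither. Cks2, Aspm and Nusap1 are among the genes that changed at P12.
Top2a, chr11:99024190-99024439, minus strand: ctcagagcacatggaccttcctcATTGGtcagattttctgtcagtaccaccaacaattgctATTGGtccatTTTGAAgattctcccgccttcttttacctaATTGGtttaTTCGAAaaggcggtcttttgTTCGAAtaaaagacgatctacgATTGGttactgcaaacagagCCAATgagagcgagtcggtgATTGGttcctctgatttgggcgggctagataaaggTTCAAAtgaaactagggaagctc
Ccnb2, chr9:70421555-70421804, minus strand: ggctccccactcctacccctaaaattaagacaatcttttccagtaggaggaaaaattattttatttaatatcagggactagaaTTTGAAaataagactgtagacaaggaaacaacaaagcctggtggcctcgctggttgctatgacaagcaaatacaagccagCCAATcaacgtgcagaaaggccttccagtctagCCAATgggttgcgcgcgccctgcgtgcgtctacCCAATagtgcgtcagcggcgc
Mki67, chr7:135716380-135716629, minus strand: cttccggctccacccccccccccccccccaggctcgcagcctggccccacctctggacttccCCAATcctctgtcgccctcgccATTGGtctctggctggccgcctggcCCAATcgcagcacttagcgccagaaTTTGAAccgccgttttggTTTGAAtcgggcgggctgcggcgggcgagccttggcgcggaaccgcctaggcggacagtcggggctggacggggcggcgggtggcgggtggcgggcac
Cks2, chr13:51644982-51645231, plus strand: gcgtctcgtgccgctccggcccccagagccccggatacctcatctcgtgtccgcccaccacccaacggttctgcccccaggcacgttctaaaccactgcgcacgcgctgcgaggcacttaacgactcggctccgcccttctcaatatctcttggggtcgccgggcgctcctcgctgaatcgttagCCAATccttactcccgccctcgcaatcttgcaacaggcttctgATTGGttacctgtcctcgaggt
Aspm, chr1:139454523-139454772, plus strand: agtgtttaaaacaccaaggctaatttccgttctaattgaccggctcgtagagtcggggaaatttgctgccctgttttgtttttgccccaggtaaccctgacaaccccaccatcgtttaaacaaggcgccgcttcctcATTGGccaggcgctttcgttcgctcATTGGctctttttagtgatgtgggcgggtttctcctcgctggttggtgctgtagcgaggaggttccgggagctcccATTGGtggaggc
Nusap1, chr2:119618048-119618297, plus strand: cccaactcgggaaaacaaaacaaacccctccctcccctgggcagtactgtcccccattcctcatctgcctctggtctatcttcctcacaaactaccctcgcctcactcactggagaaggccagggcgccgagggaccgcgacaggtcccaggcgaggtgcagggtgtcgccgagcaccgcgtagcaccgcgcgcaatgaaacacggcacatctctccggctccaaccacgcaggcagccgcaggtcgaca

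A match of letters is a description and does not show a working site. Between E15 and E13, compared below, the median log2 fold change was -1.55 over the 28 genes with both (-1.99 to -0.41) and -1.39 over the other 13 (-1.76 to -0.82). Against the embryo these medians were -0.51 and -0.37 in normoxic and -0.05 and -0.17 in hypoxic P12 cells. For hypoxic against normoxic P12 cells they were 0.60 and 1.07, with the larger value in genes without both.

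Summed over the 49 genes, the mitotic signal was 5657 and 6180 CPM at E13, 2284 and 2150 CPM at E15, 3245 and 2801 CPM in normoxia and 5630 and 5258 CPM in hypoxia. The group means were 5919 ± 369 CPM at E13, 2217 ± 94.6 at E15, 3023 ± 314 in normoxia and 5444 ± 263 in hypoxia (SD, n = 2 libraries each). The E13 sum was 2.67 times the E15 sum, and the hypoxic sum was 1.80 times the normoxic sum. Neither pair of groups overlapped. On library totals without TMM these ratios were 2.72 and 1.70, also without overlap, but the place of P12 against the embryo moved: normoxic cells had 1.36 times the E15 sum after TMM and 0.77 times without it, and hypoxic cells 0.92 times the E13 sum after TMM and 0.48 times without it. Without TMM the hypoxic libraries were at 4449 and 3360 CPM, against 7693 and 8539 CPM at E13 and 3123 and 2841 CPM at E15, and E13 had 3.54 times the normoxic sum in place of 1.96 times. The unweighted picture was less sharp at P12, where the mean of log2(CPM + 1) over the genes was 4.65 and 5.18 in normoxia and 6.004 and 5.15 in hypoxia, so that the groups overlapped, against 6.59 and 6.70 at E13 and 5.28 and 5.12 at E15.

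**Figure D2:**
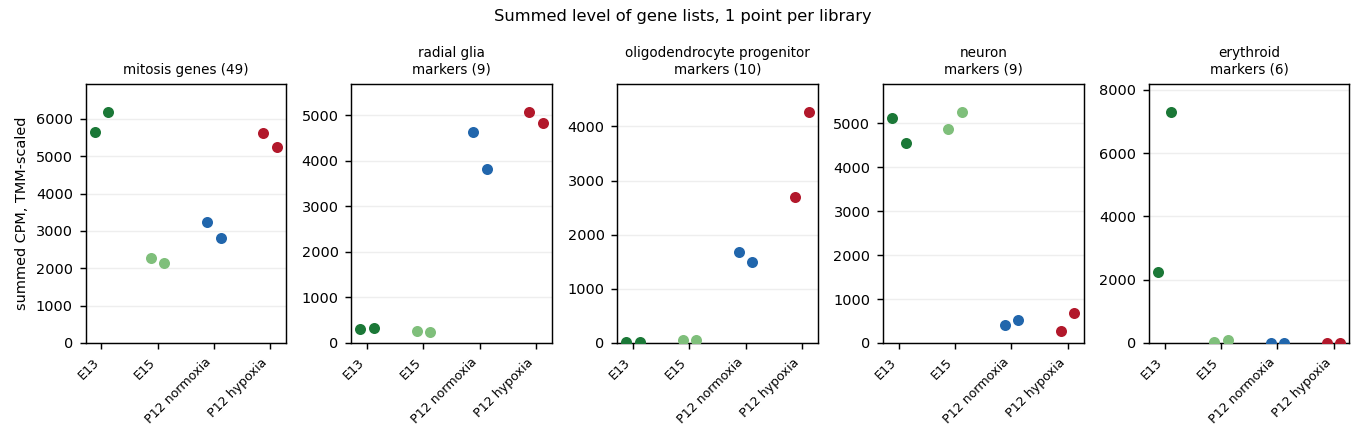
Summed CPM (TMM-scaled, linear axes from 0) of the 49 mitosis genes and of 4 lists of cell type markers, 1 point per library, by group. On this TMM scale the mitosis sum is high at E13 and in hypoxia and low at E15 and in normoxia (without TMM hypoxia has 0.48 times the E13 sum), while erythroid markers are high at E13 only and oligodendrocyte progenitor markers are highest in hypoxia.

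By group mean, 34 of the 49 genes were highest at E13 (22.8% of all tested genes were), 14 in hypoxia (28.6%), 1 in normoxia (27.2%), which was Ckap5, and 0 at E15 (21.5%). Without TMM 44 were highest at E13 (32% of all tested genes were) and 5 in hypoxia (19.4%), namely Plk1, Cdca8, Spc24, Knstrn and Pttg1. Levels of different genes can be compared only per length, as CPM per kb of exon. At E13 the highest were Ube2c, a ubiquitin-conjugating enzyme that works with the anaphase-promoting complex, at 108.5 CPM per kb, and Cdc20, which activates that complex, at 104. Pttg1, which encodes securin, was the lowest of the 49 at E13, at 3.39 CPM per kb, and the highest in both P12 groups, at 160 in normoxia and 344 in hypoxia.

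Between E13 and E15 all 49 genes were lower at E15, and for all 49 both E15 libraries lay below both E13 libraries (25.8% of all tested genes did so). The median log2 fold change was -1.53, with a range of -1.99 to -0.41, against -0.00 for all tested genes. In the fit of all 8 libraries, which shares 1 estimate of spread with the noisier P12 groups, edgeR's quasi-likelihood test called 0 of the 49 at a Benjamini-Hochberg adjusted p of 0.05, and 0 of all tested genes (0.0%), while 16 of the 49 had an unadjusted p under 0.05 (2.19% of all tested genes did so in this direction). DESeq2 called 8 lower (1.21% of all tested genes) and limma-voom 37 lower (2.87%). In edgeR's fit of the 4 embryonic libraries alone, 28 of the 49 fell with age and 0 rose (0.762% and 0.493% of 18253 tested genes), with adjusted p from 0.0353 to 0.0494, and DESeq2 on those libraries called 47 lower (6.77%). The fold changes and SE in the next paragraphs are from edgeR's fit of the embryonic libraries (n = 2 and 2).

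All 4 genes of the chromosomal passenger complex, which corrects wrong attachments and guides cytokinesis, fell from E13 to E15. Cdca8, which encodes borealin, was at 117 and 124 CPM at E13 and at 37.5 and 33.8 CPM at E15, and it fell by 1.76 ± 0.11 (SE) on the log2 scale (edgeR adjusted p = 0.0353). Birc5, or survivin, fell by 1.76, the kinase Aurkb by 1.52 and the scaffold Incenp by 1.22. All 4 cytokinesis genes fell too. Prc1, which bundles the microtubules of the central spindle, was at 155 and 163 CPM at E13 and at 51.3 and 46.7 CPM at E15, a fall by 1.70 ± 0.10 (SE, edgeR adjusted p = 0.0353). Ect2, which activates RhoA at the cleavage furrow, fell by 1.64, and its partner Racgap1, at 219 and 241 against 94.4 and 83.5 CPM, by 1.37 ± 0.11.

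Of the 10 spindle genes 7 fell. Nusap1, which links microtubules around chromosomes, was at 107 and 115 CPM at E13 and at 38.6 and 38.1 CPM at E15, a fall by 1.53 ± 0.10 (SE, edgeR adjusted p = 0.0353). Tacc3, which with Ckap5 stabilises spindle fibres, was at 164 and 178 against 56.7 and 47.7 CPM and fell by 1.71 ± 0.13. Aspm, a spindle pole gene known from inherited microcephaly, was at 54.1 and 57.5 against 15.9 and 13.3 CPM and fell by 1.93 ± 0.16 (adjusted p = 0.0393, edgeR). Ckap5, a microtubule polymerase, had the smallest difference of the 49. Its levels were 251 and 233 CPM at E13 and 153 and 212 CPM at E15, which did not pass at -0.41 ± 0.17 (SE) on the log2 scale (edgeR adjusted p = 0.299).

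Of the 4 anaphase and exit genes, Ube2c and Cdc20 fell and Pttg1 and Espl1 did not pass. Ube2c had the largest difference of the 49, from 271 and 293 CPM at E13 to 77.3 and 64.4 CPM at E15, a fall by 1.99 ± 0.13 (SE, edgeR adjusted p = 0.0353). Cdc20 fell by 1.91. Pttg1 was low at both ages, at 6.48 and 7.09 CPM at E13 and 5.41 and 2.30 CPM at E15 (log2 fold change -0.81 ± 0.47, edgeR adjusted p = 0.439).

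Of the 10 genes of mitotic entry 4 fell, namely Ccnb1 by 1.62, Ccna2 by 1.61, Cdc25b by 1.98 and the centrosome kinase Nek2 by 1.28. Plk1 was at 107 and 123 CPM at E13 and at 49.7 and 34.2 CPM at E15, which did not pass at -1.46 ± 0.22 (SE) on the log2 scale (edgeR adjusted p = 0.0699), and Cdk1 itself had -1.38 ± 0.18 (adjusted p = 0.0561). Of the 11 kinetochore and checkpoint genes 5 fell, namely the centromeric histone Cenpa, the motor Cenpe and the checkpoint genes Bub1, Bub1b and Ttk. Spc25, at 161 and 174 against 76.8 and 61.6 CPM, had a log2 fold change of -1.28 ± 0.15 and missed the threshold (edgeR adjusted p = 0.0506). Of the 6 genes of chromosome structure, Top2a and Ncapg fell. Top2a, the topoisomerase that untangles sister chromatids, was at 310 and 416 CPM at E13 and at 121 and 128 CPM at E15, a fall by 1.55 ± 0.17 (SE, edgeR adjusted p = 0.0494). The condensin subunits Smc4 (139 and 148 against 89.7 and 85.6 CPM) and Ncapd2 (186 and 222 against 134 and 142 CPM) had the smaller log2 fold changes of -0.71 ± 0.09 and -0.56 ± 0.12, neither of which passed.

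**Figure D3:**
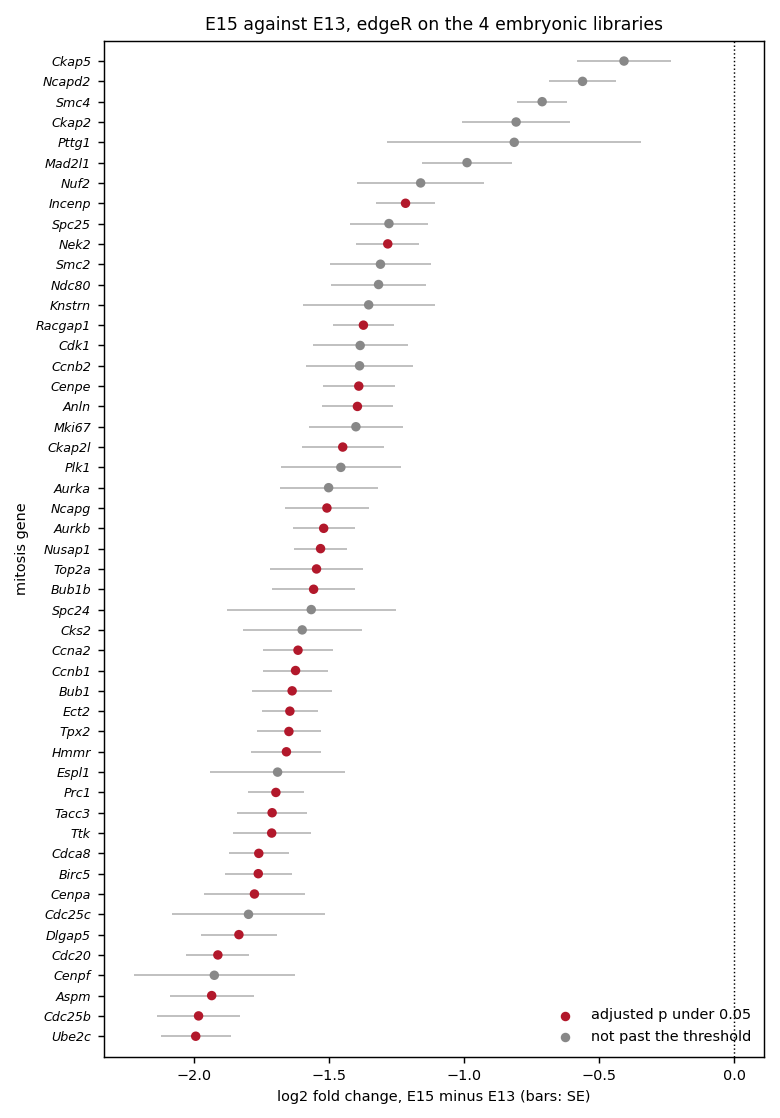
Log2 fold change of each mitosis gene, E15 minus E13, with its SE, from edgeR's fit of the 4 embryonic libraries; red points have an adjusted p under 0.05. All 49 points lie left of 0, from -1.99 for Ube2c to -0.41 for Ckap5, and 28 are red.

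Markers of other cells differed over the same interval. Markers of red blood cell precursors, 6 genes, summed to 2238 and 7296 CPM at E13 and to 20.1 and 85.5 CPM at E15, and their part in the result was not tested. Intermediate progenitor markers, 7 genes, summed to 2066 and 2255 CPM at E13 and to 1458 and 1230 CPM at E15. Of the 7, 6 were lower in both E15 libraries (25.8% of all tested genes were) and 1 was higher in both (23.6%). Radial glia markers, 9 genes, summed to 299 and 324 against 255 and 243 CPM, but their directions were mixed. Of the 9, 4 were higher in both E15 libraries and 3 lower in both. The highest single marker in each library was at 199 and 208 CPM at E13 and at 95.2 and 90.7 CPM at E15. Neuron markers summed to 5122 and 4544 against 4863 and 5253 CPM.

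Beside the 49, a list of 117 other mitotic genes was read, of which 116 were tested: 15 of the anaphase-promoting complex, 22 of the kinetochore and centromere, 23 of the spindle and centrosome, 19 of the transcription machinery of the cell cycle and smaller groups. At E15 99 of 116 were lower than at E13 and 84 had no overlap in that direction (72.4%, against 25.8% of all tested genes), with a median log2 fold change of -0.62. In edgeR's fit of all libraries 0 were called, and 7 had an unadjusted p under 0.05 with the lower level at E15 (2.19% of all tested genes). The fit of the embryonic libraries called 12, all lower (0.762% of all genes in that fit were). All 22 kinetochore and centromere genes were lower (median -0.98), whereas the 15 genes of the anaphase-promoting complex had a median of -0.01 and the 13 of cohesin and condensin -0.18. The smallest p-values were those of Cit, Cenpl, Cks1b and Zwilch. Cks1b, the sister gene of Cks2, was at 102 and 112 CPM at E13 and at 41.1 and 37.3 CPM at E15.

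Cells of P12 in normal air were then compared with the mean of E13 and E15. Of the 49 genes 34 had a lower value and 15 a higher one, with a median log2 fold change of -0.38 (all tested genes -0.04), and edgeR called 3 lower (5.68% of all tested genes were) and 1 higher (12.1%). Without TMM 6 were called lower and 1 higher. Over all 19936 tested genes the calls moved in the same way, from 1133 to 2099 lower and from 2408 to 1699 higher. The mitosis gene called higher encodes securin, the inhibitor of separase. Pttg1 (GRCm38 chr11:43420250-43426251, minus strand) was at 6.48, 7.09, 5.41 and 2.30 CPM in the embryonic libraries and at 381 and 260 CPM in normoxia, and it rose by 5.97 ± 0.40 (SE) on the log2 scale (edgeR adjusted p = 0.000618). It passed under all 18 alternatives.

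The genes called lower were 2 of mitotic entry and 1 of condensin. Nek2 (chr1:191821444-191833050, plus strand), which helps the centrosomes part, was at 51.9, 54.4, 22.0 and 21.7 CPM in the embryonic libraries and at 0.286 and 0.0652 CPM in normoxia, which is 9 and 2 counts, and it fell by 7.58 ± 0.96 (SE, edgeR adjusted p = 0.00532), with -9.10 without normoxic replicate 1 and -6.89 without normoxic replicate 2. Cks2, a small subunit that docks Cdk1 on its substrates, was at 46.0, 52.9, 19.0 and 13.7 CPM in the embryo and at 0.0318 and 0.554 CPM in normoxia, which is 1 and 17 counts, and it fell by 6.59 ± 1.65 (SE, adjusted p = 0.0447, edgeR). The Cks2 value was -5.81 without normoxic replicate 1, where it did not pass, and -9.69 without normoxic replicate 2, and it passed in 11 of 18 alternatives. Ncapd2 was at 53.3 and 60.9 CPM in normoxia and fell by 1.56 ± 0.38 (SE, adjusted p = 0.0414, edgeR). It passed in 8 of 18 alternatives. At counts as low as those of Nek2 and Cks2 in normoxia, a fitted fold change depends on the prior count. The fit with a replicate block left 2 calls, 1 higher and 1 lower (7.23% and 1.32% of all tested genes). The number of calls also changed with 1 library left out. The median log2 fold change of the 49 was -0.51 without normoxic replicate 1 (-0.34 for all tested genes) and -0.47 without normoxic replicate 2 (-0.72).

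Several large differences did not pass, and in these the 2 normoxic libraries were far apart. Cdk1 was at 0.572 and 11.8 CPM against 43.3 to 138 CPM in the embryo (log2 fold change -3.72 ± 1.28, edgeR adjusted p = 0.0995), and Ube2c at 0.318 and 14.1 CPM against 64.4 to 293 CPM (-4.29 ± 1.46, adjusted p = 0.0967). For 13 of the 49 both normoxic libraries lay below all embryonic libraries (32.1% of all tested genes did so), and 6 of these 13 were entry genes. For 1, Pttg1, both lay above (27.3%). Genes near the embryonic mean included Top2a (249 and 172 CPM, -0.01 ± 0.29), Racgap1 (237 and 99.1 CPM, 0.23 ± 0.39), Tacc3 (78.5 and 94.9 CPM, -0.12 ± 0.48), Smc4 (164 and 137 CPM, 0.42 ± 0.26) and Spc25 (66.7 and 96.3 CPM, -0.40 ± 0.39). The sign of Racgap1, Smc4, Plk1 and Cdca8 in this comparison was negative without TMM.

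Hypoxic P12 cells were compared with the same embryonic mean, and the 2 comparisons share those 4 libraries. The 49 genes were evenly divided, 25 higher and 24 lower, with a median of 0.06 against -0.43 for all tested genes. That median was 0.30 with relative log expression scaling, -0.28 with upper-quartile scaling and -0.90 without TMM. edgeR called 9 higher (13.2% of all tested genes were) and 1 lower (12.9%). The split was 6 and 2 with upper-quartile scaling (11.1% and 14.5% of all tested genes) and 3 and 3 without TMM (8.26% and 18.6%). Without TMM Pttg1, Plk1 and Cdca8 stayed called as higher. Pttg1 was at 637 and 738 CPM and rose by 7.07 ± 0.42 (SE, edgeR adjusted p = 0.000422).

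Plk1, which drives centrosome maturation and many later steps, was at 348 and 513 CPM in hypoxia against 34.2 to 123 CPM in the embryo and rose by 2.63 ± 0.33 (SE, edgeR adjusted p = 0.00428). Cdca8 was at 254 and 343 CPM against 33.8 to 124 CPM and rose by 2.19 ± 0.31 (adjusted p = 0.00581, edgeR). For both genes every hypoxic library lay above every embryonic library. Spc24 was at 115 and 79.1 CPM against 8.95 to 38.6 CPM and rose by 2.21 ± 0.42 (adjusted p = 0.0156, edgeR). Nusap1 was at 155 and 217 CPM against 38.1 to 115 CPM and rose by 1.51 ± 0.27 (adjusted p = 0.0136, edgeR). The remaining genes called higher were the small spindle protein gene Knstrn, by 1.94, the proliferation marker Mki67, by 1.39, Spc25 (173 and 373 CPM), by 1.34 ± 0.37, and Smc4 (302 and 199 CPM), by 1.16 ± 0.26. The Spc25 value was 0.67 without hypoxic replicate 2, where it did not pass, and 1.79 without hypoxic replicate 1, and it passed in 6 of 18 alternatives.

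**Figure D4:**
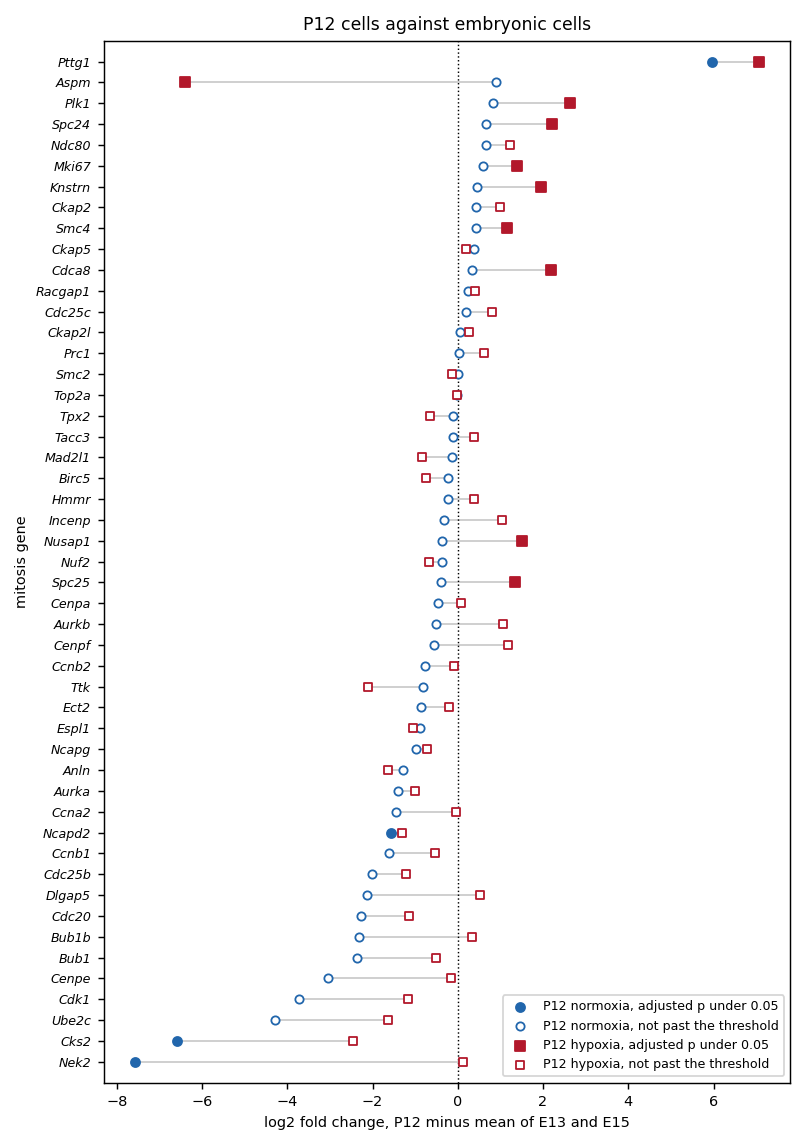
Log2 fold change of each mitosis gene against the mean of E13 and E15 for normoxic (blue circles) and hypoxic (red squares) P12 cells, filled where edgeR's adjusted p is under 0.05; both comparisons use the same 4 embryonic libraries. Pttg1 lies far to the right in both, Nek2 and Cks2 far to the left in normoxia and Aspm far to the left in hypoxia.

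The gene called lower was Aspm (chr1:139454772-139494091, plus strand). It was at 0.269 and 0.407 CPM in hypoxia, which is 8 and 11 counts, against 54.1, 57.5, 15.9 and 13.3 CPM in the embryo, and it fell by 6.39 ± 0.66 (SE, edgeR adjusted p = 0.00217). The call passed under all 18 alternatives. Both hypoxic libraries lay above all embryonic libraries for 9 of the 49 (21.3% of all tested genes did so) and below them for 5 (36.3%). Racgap1 (154 and 222 CPM) and Tacc3 (59.3 and 187 CPM) had log2 fold changes of 0.39 ± 0.39 and 0.38 ± 0.47, which turned negative without TMM. How many genes were called depended on which libraries were in the fit. The median log2 fold change of the 49 was -0.22 without hypoxic replicate 1 and 0.14 without hypoxic replicate 2. Over all tested genes it was -1.68 and -0.99.

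Hypoxia and normoxia at the same age were compared directly. Of the 49 genes 38 had a higher value after hypoxia and 11 a lower one, with a median log2 fold change of 0.68 against 0.00 for all tested genes. edgeR called 2 higher (0.196% of all tested genes were), Nek2 and Nusap1, and 1 lower (2.82%), Aspm. With relative log expression scaling, with upper-quartile scaling or without TMM it called 1 higher and 1 lower. In those fits 0.155% to 0.181% of all tested genes were called higher and 2.12% to 3.16% lower. For 21 of the 49 both hypoxic libraries lay above both normoxic libraries (13.1% of all tested genes did so) and for 1, Aspm, both lay below (20.1%). The other 27 overlapped. DESeq2 called 12 higher and 1 lower (6.87% and 13.1% of all tested genes).

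With edgeR these calls were made only with all embryonic libraries in the fit. edgeR on the 4 P12 libraries alone called 0 of the 49 and 0 of all genes. There 7 of the 49 had an unadjusted p under 0.05, as did 1558 of all 14836 genes. limma-voom called 0 of the 49, with 10 at an unadjusted p under 0.05 (1699 of all 19936 genes). DESeq2 on the P12 libraries called 2 of the same genes, Nek2 and Aspm (0.782% of all genes were called higher and 8.41% lower). Without any 1 embryonic library 0 were called. With a replicate block 0 were called. The number of calls also changed with 1 P12 library left out. The median log2 fold change of the 49 was then 1.15 and 0.85 without normoxic replicate 1 or 2 (0.00 for all tested genes). It was 0.62 without hypoxic replicate 1 (-0.32) and 1.01 without hypoxic replicate 2 (-0.16).

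All 10 genes of mitotic entry had a higher value after hypoxia, with a median of 1.25, and for 5 the groups did not overlap. Nek2 was at 0.286 and 0.0652 CPM in normoxia and at 36.5 and 38.1 CPM in hypoxia, within its range in the embryo. It rose by 7.71 ± 0.98 (SE, edgeR adjusted p = 0.0242), with 9.31 without normoxic replicate 1 and 7.01 without normoxic replicate 2. Nek2 passed here in 11 of 18 alternatives. Its exons overlap those of a gene on the other strand by 298 bases, and whether the counting used strand is not stated in the sources used here. Plk1 was at 158 and 90.1 CPM in normoxia and at 348 and 513 CPM in hypoxia, without overlap, which did not pass at 1.80 ± 0.41 on the log2 scale (edgeR adjusted p = 0.0950). Cks2 (0.0318 and 0.554 against 8.91 and 1.48 CPM), Cdk1 (0.572 and 11.8 against 22.0 and 50.4 CPM) and Ccna2 (81.5 and 24.0 against 120 and 162 CPM) did not overlap either. Ccnb1 did overlap, at 24.0 and 79.3 CPM in normoxia against 177 and 39.9 CPM in hypoxia. A row for its pseudogene, Ccnb1-ps, held 205 and 616 counts in normoxia and 1854 and 433 in hypoxia, in the same order as Ccnb1, and reads shared between the 2 could not be resolved.

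Of the passenger complex, Cdca8 and Aurkb were higher in both hypoxic libraries. Cdca8 was at 60.6 and 105 CPM in normoxia and at 254 and 343 CPM in hypoxia, which did not pass at 1.85 ± 0.38 on the log2 scale (edgeR adjusted p = 0.0695). Birc5 was at 58.4 and 15.2 CPM in normoxia and at 51.0 and 0.222 CPM in hypoxia.

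Kinetochore and checkpoint genes had a median of 1.54, with 8 of 11 positive, 6 of 11 without overlap and 0 called. Spc25 was at 66.7 and 96.3 CPM in normoxia and at 173 and 373 CPM in hypoxia (1.74 ± 0.45, edgeR adjusted p = 0.133). Its complex partner Spc24 was at 35.9 and 30.7 against 115 and 79.1 CPM, and Cenpf, a kinetochore protein that builds up in late interphase, at 30.9 and 45.8 against 62.8 and 192 CPM. The checkpoint kinases went both ways within groups: Bub1 was at 0.159 and 24.1 CPM in normoxia and at 88.3 and 0.148 CPM in hypoxia, and Ttk at 0.127 and 31.7 CPM and at 12.8 and 0.222 CPM.

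Among the spindle genes 1 rose and 1 fell. Nusap1 was at 46.7 and 54.1 CPM in normoxia and at 155 and 217 CPM in hypoxia. It rose by 1.88 ± 0.34 (SE, edgeR adjusted p = 0.0491), but Nusap1 passed in only 4 of 18 alternatives. Its exons overlap those of Oip5 on the other strand by 172 bases. Aspm was at 44.4 and 62.1 CPM in normoxia, which is 1398 and 1906 counts, and at 0.269 and 0.407 CPM in hypoxia. It fell by 7.29 ± 0.70 (SE, edgeR adjusted p = 0.0196) and passed in 11 of 18 alternatives. The hypoxic libraries that were highest of all 8 for Nusap1 were the lowest for Aspm. Tacc3 (78.5 and 94.9 against 59.3 and 187 CPM) overlapped, and its log2 fold change of 0.51 ± 0.56 was -0.53 without hypoxic replicate 2.

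Of the anaphase genes Pttg1 was at 381 and 260 CPM in normoxia and at 637 and 738 CPM in hypoxia, without overlap, which did not pass at 1.10 ± 0.44 on the log2 scale (edgeR adjusted p = 0.272). Without Pttg1 the hypoxic sum of the other 48 genes was still 1.76 times the normoxic sum. Ube2c was at 0.318 and 14.1 against 34.0 and 57.2 CPM, also without overlap. Among cytokinesis genes only Prc1 did not overlap (76.3 and 104 against 145 and 124 CPM), and Racgap1 did (237 and 99.1 against 154 and 222 CPM, 0.16 ± 0.46), with a negative value without normoxic replicate 2 or hypoxic replicate 2. Chromosome structure genes had the smallest median of the roles, 0.26. Mki67 (95.9 and 79.0 against 182 and 125 CPM) and Smc4 (164 and 137 against 302 and 199 CPM, 0.73 ± 0.31) did not overlap, and Top2a (249 and 172 against 167 and 254 CPM) had a log2 fold change of -0.00 ± 0.34.

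**Figure D5:**
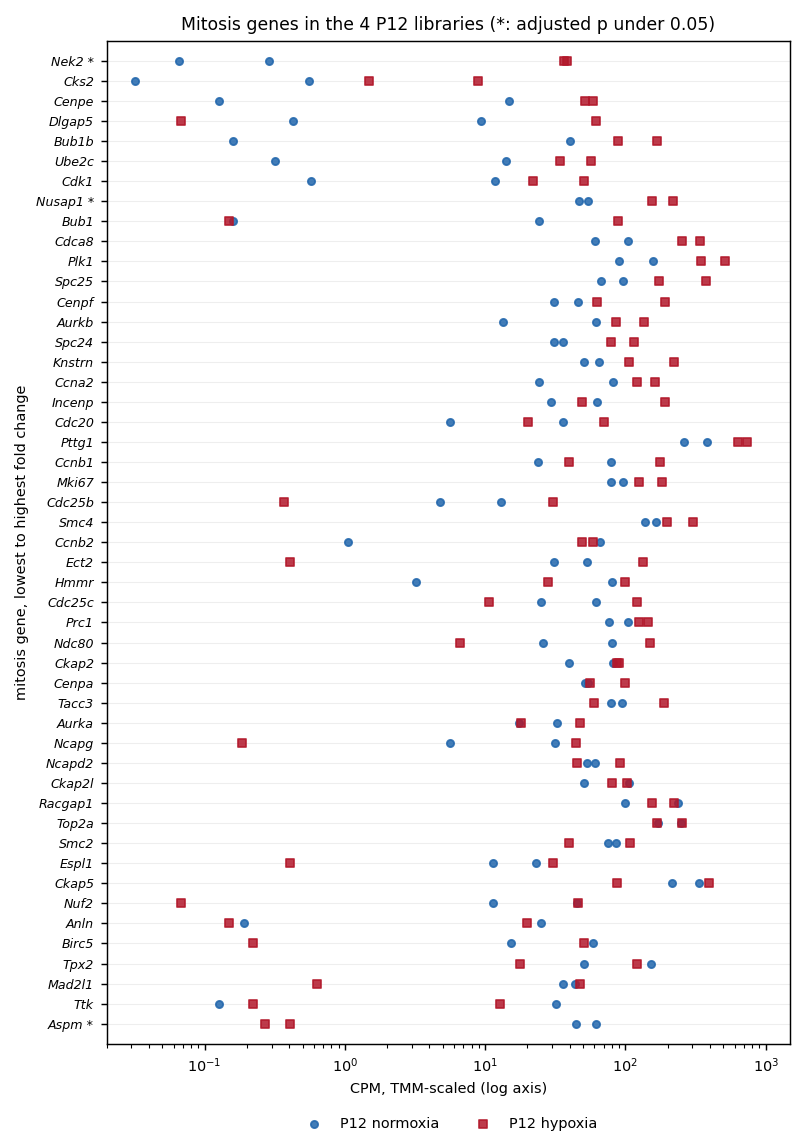
Level of each mitosis gene in the 4 P12 libraries, as TMM-scaled CPM on a log axis, normoxia as blue circles and hypoxia as red squares, ordered from the lowest fold change at the bottom to the highest at the top; stars mark an adjusted p under 0.05. Hypoxic squares lie right of both circles for 21 genes and left of both for Aspm, while in 27 genes the groups overlap.

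Markers of oligodendrocyte progenitors moved in the same direction as the mitotic sum between the P12 groups. They summed to 1677 and 1488 CPM in normoxia and to 2705 and 4265 CPM in hypoxia, and 9 of 10 had a higher value after hypoxia. For 8 both hypoxic libraries lay above both normoxic libraries (13.1% of all tested genes did so), and edgeR called 0 of these markers. Pdgfra, their defining receptor, was at 54.2 and 73.6 against 144 and 411 CPM. Markers of maturing oligodendrocytes summed to 265 and 672 against 1308 and 2290 CPM. The part of these cells in the mitotic result was not tested. Of 9 neuron markers 3 were called lower after hypoxia by edgeR (2.82% of all tested genes were), although their sums overlapped. Astrocyte markers overlapped, at 8223 and 9332 against 11296 and 8670 CPM. Defining microglial markers were at or near 0, with Cx3cr1 and Csf1r at 0.111 CPM or less in every P12 library and P2ry12 at 21.2 CPM in normoxic replicate 2 only, and the endothelial markers, 7 genes, summed to 10.96 and 0.912 CPM in normoxia and to 2.42 and 0.074 CPM in hypoxia, with Cldn5, Pecam1, Cdh5 and Tek at 0 in every P12 library. Mural markers, 6 genes, summed to 2523 and 1978 CPM in normoxia and to 1275 and 1023 CPM in hypoxia, nearly all of it Rgs5, with Kcnj8, Abcc9 and Vtn at 0.

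Among the 116 other mitotic genes, edgeR called 12 higher and 9 lower in normoxic P12 cells than in the embryo, 19 higher and 9 lower in hypoxic cells than in the embryo, and 3 higher and 0 lower after hypoxia than after normoxia. These are 10.3% and 7.76% in normoxia (12.1% and 5.68% of all tested genes), 16.4% and 7.76% in hypoxia (13.2% and 12.9%) and 2.59% and 0.0% between the P12 groups (0.196% and 2.82%). Cit, the gene of citron kinase, was at 4.05 to 16.1 CPM in the embryo and at 195 to 296 CPM in the 4 P12 libraries. It rose in both groups, by 4.83 ± 0.31 in normoxia and 4.80 ± 0.31 in hypoxia (edgeR adjusted p = 0.000523 and 0.000525). Counts per gene do not tell the transcripts of Cit apart, so which of them rose was not tested. Zw10, a checkpoint gene that also acts in membrane traffic, rose by 2.96 and 2.49. Zwilch, which works with Zw10, and Rhoa, the GTPase of the furrow that acts in most cells, were among the 4 of smallest p in normoxia, and Pmf1 and Cenpl, of the kinetochore, in hypoxia. Foxm1, a transcription factor of late cell cycle genes, was at 97.7 and 95.4 CPM at E13 and 46.0 and 35.5 CPM at E15. At P12 it was at 20.5 and 9.87 CPM in normoxia and 8.95 and 11.1 CPM in hypoxia. On the log2 scale it was below the embryo by 2.05 and 2.65. Foxm1 is named after its values were seen. Of the 19 transcription genes, 14 were lower and 5 higher than the embryo in normoxia, and 10 lower and 9 higher in hypoxia.

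The 3 other mitotic genes called higher after hypoxia were E2f8, Wdr62 and Anapc7. E2f8, a repressor of the E2F family, was at 0.476 and 0.196 CPM in normoxia and at 65.7 and 88.2 CPM in hypoxia, and it rose by 7.83 ± 0.89 (SE, edgeR adjusted p = 0.0228). Wdr62, a spindle pole gene that like Aspm is known from inherited microcephaly, was at 0.191 and 0.0652 against 13.7 and 38.2 CPM and rose by 7.63 ± 1.13 (adjusted p = 0.0326, edgeR). Anapc7, a subunit of the anaphase-promoting complex, was at 20.04 and 24.8 against 112 and 106 CPM and rose by 2.28 ± 0.41 (adjusted p = 0.0498, edgeR). Depdc1a was at 0.0953 and 0.0326 against 33.2 and 4.77 CPM and missed the threshold (adjusted p = 0.0503, edgeR). None of these 4 passed in every alternative: 11 of 18 kept E2f8, 8 Wdr62, 5 Anapc7 and 6 Depdc1a.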

How the data were processed

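Sequencing counts of 8 libraries were used, 1 table per library. Per the submitters' processing notes, the authors worked with cutadapt, STAR and Subread on GRCm38; their versions, and whether counting used strand or multiply matching reads, are not given in the sources used here. The deposited values are raw counts per gene. Of 55487 rows per table, 1980 named no gene (0.205 to 0.266% of counts) and were left out. Genes were filtered with filterByExpr (minimum count 10, minimum total 15), which kept 19936, and scaled by TMM. The 4 groups were fitted together, with 4 residual degrees of freedom, by edgeR's quasi-likelihood test (edgeR 4.0.16, R 4.3.3) with Benjamini-Hochberg adjustment over all tested genes at 0.05. The script was tested on simulated data. DESeq2 1.42.0, limma-voom (limma 3.58.1), other scalings and filters, the compared groups alone, a replicate block and leaving out each library were alternatives. A count of 3 corresponds to 0.0637 to 0.0828 CPM before scaling; such limits cover counting error only. Gene positions are from the GENCODE annotation on GRCm38, and promoters from RefSeq.

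The mitosis genes and the other lists were chosen with earlier results of these data known. Values and statistics are given for the mitosis genes of smallest p in each comparison, the highest and lowest fold change between E15 and E13, the highest level per length in each role, and the other mitotic genes of smallest p; further members are given by role. Deviations of same-numbered libraries had correlations of -0.044 to 0.014 between groups over all tested genes. With 2 libraries a group, such values cannot exclude that same-numbered libraries shared a litter or a preparation.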

Additional observations from a re-analysis of the deposited data

How the results depend on the processing

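Counts of mitosis genes called by edgeR were 0 for E15 against E13, 4 for normoxia and 10 for hypoxia against the embryo, and 3 for hypoxia against normoxia. DESeq2 gave 8, 9, 13 and 13. limma-voom gave 37 for E15 against E13 and 0 for hypoxia against normoxia. The compared groups alone gave 28 for E15 against E13 and 0 for hypoxia against normoxia, and DESeq2 on them, added after seeing the data, 47 for E15 against E13 and 14 for normoxia against the embryo. No low-count filter gave 2 for normoxia against the embryo. Library totals without TMM, also added after seeing the data, gave 7 for normoxia and 6 for hypoxia against the embryo. With 1 library left out, in turn, the counts ran from 2 to 8, 4 to 20 and 0 to 13 for the last 3 comparisons. A lone library left in a group was assumed to vary like the others.

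Over all genes edgeR called 0, 3541, 5208 and 602 in the same order. DESeq2 gave 373, 7252, 9001 and 3981. limma-voom gave 935 for E15 against E13, 2390 for hypoxia against the embryo and 0 for hypoxia against normoxia. The compared groups alone gave 229, 6731 for normoxia against the embryo and 0 for hypoxia against normoxia, and DESeq2 on them 2288, 9524, 9851 and 1363. No filter gave 295 for hypoxia against normoxia. With 1 library left out the counts ran from 928 to 5990, 1562 to 6836 and 0 to 3018. The causes of these shifts were not tested.

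The replicate block gave 2 mitosis genes for normoxia and 7 for hypoxia against the embryo and 0 for hypoxia against normoxia; over all genes it gave 1705, 2868 and 1. The labels do not say what an equal number shares, and over all tested genes same-numbered libraries did not deviate together.

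Of single-gene values 12 changed sign. Without TMM, Cdca8 was at -0.45, Smc4 at -0.42, Racgap1 at -0.66 and Plk1 at -0.036 for normoxia against the embryo, and Racgap1 at -0.56 and Tacc3 at -0.62 for hypoxia against the embryo. Without normoxic replicate 1 or 2, Racgap1 was at -0.67 and Cdca8 at -0.12 against the embryo, and without normoxic replicate 2 Racgap1 was at -0.34 for hypoxia against normoxia. Without hypoxic replicate 2, Tacc3 was at -0.69 against the embryo and -0.53 against normoxia, and Racgap1 at -0.15 against normoxia. The highest values with 1 library left out were 0.54 for Cdca8 and 0.73 for Racgap1 (normoxia against the embryo), 0.99 for Tacc3 (hypoxia against the embryo), and 1.15 for Racgap1 and 1.22 for Tacc3 (hypoxia against normoxia). The cause was not tested. The counts of 49 genes lower in both E15 libraries and 21 higher in both hypoxic libraries were 49 and 20 to 21 under the other scalings.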
